A study of Mus musculus with 12 samples.

Results

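Nme4, Mgme1 and Cmpk2 encode mitochondrial enzymes of nucleotide and DNA metabolism, and all 3 had higher counts in large than in small clones of the mouse Fallopian tube in each of 6 mice. That pattern was the reason for choosing them, so their difference between clone sizes is described here and not tested. Another 7 genes that serve mitochondrial nucleotide supply or DNA replication (Tk2, Dguok, Rrm2b, Polg, Polg2, Twnk and Tfam) stand beside them for comparison. Together they are 10 of the 35509 genes in the count table, and each was found by its symbol. Of the 10, 9 passed the filter on low counts, and Tfam did not. The table lists Nme4 (ENSMUSG00000024177) on chromosome 17, Mgme1 (ENSMUSG00000027424) on chromosome 2 and Cmpk2 (ENSMUSG00000020638) on chromosome 12.

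RNA was measured in 12 libraries, 1 of large and 1 of small clones from each of 6 mice. All mice were untreated wildtype animals 4 weeks old that carried MADM RG;GR alleles on a mixed background, so large and small clones differed only in clone size by their labels. MADM, mosaic analysis with double markers, labels the descendants of single dividing cells in colour through recombination between homologous chromosomes. Each library pooled 200 laser-microdissected cells of the distal tube, digested with proteinase K and amplified from poly(A) RNA. The driver of recombination and the size that divided large from small clones are not given in the sources used here. In such pools, fewer cells of a type and less RNA per cell cannot be told apart.

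Mitochondria hold many copies of a small circular genome, which is copied by its own DNA polymerase and helicase and packaged by the protein Tfam. Its building blocks come from the cytosol or from salvage inside the mitochondrion, where kinases add phosphates to deoxynucleosides step by step. Loss of the human counterparts of several of these genes, among them TK2, DGUOK, RRM2B, POLG, TWNK and MGME1, causes mitochondrial DNA depletion or deletion disorders. CMPK2 is also induced by interferon.

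The windows around the start sites of the 3 chosen genes are shown because these genes were all high in large clones. They are RefSeq windows on GRCm38.p6, from 250 bases before to 50 bases after the start, written 5′ to 3′ on the gene's strand, with motif matches in capitals. The Nme4 window is chr17:26095421-26095720 on the minus strand, the Mgme1 window is chr2:144270654-144270953 on the plus strand, and the Cmpk2 window is chr12:26468965-26469264 on the plus strand.

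Nme4: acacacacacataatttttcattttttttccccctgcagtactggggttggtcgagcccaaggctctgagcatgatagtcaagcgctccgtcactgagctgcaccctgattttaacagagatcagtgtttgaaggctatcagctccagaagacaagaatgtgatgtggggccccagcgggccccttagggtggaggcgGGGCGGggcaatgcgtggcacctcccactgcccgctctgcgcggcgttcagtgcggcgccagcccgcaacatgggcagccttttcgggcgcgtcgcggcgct

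Mgme1: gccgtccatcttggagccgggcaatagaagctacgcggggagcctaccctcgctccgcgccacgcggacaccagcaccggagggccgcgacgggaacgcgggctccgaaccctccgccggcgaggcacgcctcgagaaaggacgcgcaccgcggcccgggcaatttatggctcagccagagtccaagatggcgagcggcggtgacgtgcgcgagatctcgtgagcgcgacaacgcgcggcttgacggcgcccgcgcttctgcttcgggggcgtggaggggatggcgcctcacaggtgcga

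Cmpk2: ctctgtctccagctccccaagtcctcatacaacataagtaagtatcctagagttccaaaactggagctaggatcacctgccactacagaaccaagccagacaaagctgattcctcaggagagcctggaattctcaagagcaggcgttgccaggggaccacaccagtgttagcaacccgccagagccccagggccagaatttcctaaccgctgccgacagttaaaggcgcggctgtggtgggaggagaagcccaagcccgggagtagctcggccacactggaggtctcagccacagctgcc

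The capitals in the Nme4 window mark a GC box (GGGCGG) at bases -52 to -47 from the start. Both strands of each window were searched for 7 motifs, and no match lay in the Mgme1 or Cmpk2 window. A GC box was present in 35.7% of all 32851 RefSeq windows of the same length. The other motifs were the nuclear respiratory factor 1 core TGCGCA (7.76% of all windows), the ETS core CCGGAA (14.9%), the E-box CACGTG (7.15%), CCAAT (37.4%), the TATA box TATAAA (13.6%) and the interferon-stimulated response element core (3.44%). GC content was 59.7% with 20 CpG sites for Nme4, 71.0% with 46 for Mgme1 and 57.0% with 8 for Cmpk2, against a median of 52.7% and 7 CpG sites over all windows. Of the 7 comparison genes, 6 had a window, and an ETS core was found in those of Tk2, Polg, Polg2, Twnk and Tfam. The GC box was found for Tk2, Polg, Twnk and Tfam, and CCAAT for Polg and Twnk, while Dguok had no match. Twnk had 2 windows, with CCAAT in window 1 and the ETS cores and GC boxes in window 2. A match describes the letters only, and neither a match nor its lack speaks to binding of a factor.

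Library totals ran from 3057834 to 4227005 expected counts, and between 12090 and 18889 genes had a count. In 5 libraries, olfactory, vomeronasal and taste receptor genes took 7.86% to 11.0% of counts, against 0.841% to 4.17% in the other 7. These 5 were the large clones of mice 1, 2 and 6 and the small clones of mice 3 and 6. Ribosomal protein genes took 1.90% to 8.69% of counts in the 5 libraries and 14.4% to 19.4% in the 7, and the summed level of 6 epithelial markers was 257 to 1277 CPM against 3871 to 8451 CPM. Here CPM is a count per 1000000 counts of the library, scaled by the trimmed mean of M-values (TMM), and on that scale 3 counts, the upper limit that a count of 0 allows, were worth 0.569 to 1.30 CPM. Markers of the tube's epithelium were present, with 9 secretory markers summing to 775 to 4570 CPM in large and 723 to 8249 CPM in small clones and 12 ciliated markers to 195 to 2698 CPM and 331 to 5301 CPM, and Sprr1a alone of these at 0 in every library. Immune markers summed to 0.432 to 253 CPM in large and 3.40 to 103 CPM in small clones. Endothelial markers summed to 133 to 453 CPM in large and 78.1 to 265 CPM in small clones. Fibroblast markers summed to 15.3 to 507 CPM and 36.1 to 163 CPM, smooth muscle markers to 3.98 to 71.3 CPM and 1.64 to 209 CPM, and red blood cell markers to 195 to 5765 CPM and 32.1 to 2078 CPM. Log2 fold changes were above 0 for 53.2% of all tested genes. They were below 0 for 11 of 12 tested ciliated markers (median -0.82), 4 of 5 tested epithelial markers (median -0.70) and the 1 tested smooth muscle marker. They were above 0 for 3 of 4 tested immune markers (median 1.28), all 4 tested endothelial markers (median 0.75) and all 3 tested red blood cell markers (median 0.84). Secretory and fibroblast markers split evenly. An unadjusted p under 0.05 by edgeR was reached by 1 endothelial and 1 fibroblast marker and by no other. Ciliated markers summed to 195 to 697 CPM in the 5 libraries of high chemoreceptor share and 1599 to 5301 CPM in the 7. Whether these differences play a part in the results on clone size was not tested, other than by the values given beside a result.

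Nme4 is the mitochondrial nucleoside diphosphate kinase, which makes nucleoside triphosphates between the mitochondrial membranes. Its level in large clones was 38.0, 165, 129, 94.2, 28.4 and 179 CPM in mice 1 to 6. In the small clones of the same mice it was 4.00, 2.72, 11.1, 8.60, 0 and 8.18 CPM. The groups did not overlap, and the lowest large-clone library lay above the highest small-clone library. The mean was 106 ± 63.5 CPM (SD, n = 6) in large and 5.76 ± 4.19 CPM (SD, n = 6) in small clones, and the fitted log2 fold change was 4.18 (SE 0.94). Of the 10848 genes tested, 0.0277% (Nme4, Cmpk2 and Dennd10) had every large-clone value above every small-clone value in TMM-scaled CPM. Nothing is read from that share, since the choice of Nme4 and Cmpk2 used this contrast.

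Within mice, the ratio of large to small clones for Nme4 ranged from 9.49 in mouse 1 (95% counting interval 5.42 to 18.2) to 60.8 in mouse 2 (30.7 to 141). The small clones of mouse 5 had no count, which allows up to 0.844 CPM, so Nme4 was at least 33.6-fold higher in the large clones of that mouse. In mouse 6, both libraries had a high chemoreceptor share, and the Nme4 ratio there was 21.9 (16.0 to 30.9). In mice 4 and 5, where neither did, it was 10.9 (7.27 to 17.1) and the lower bound given for mouse 5. These intervals cover counting error only, and amplified reads are not independent molecules.

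Mgme1 is the mitochondrial exonuclease that trims single-stranded DNA ends after replication. In large clones it stood at 15.7, 26.6, 3.21, 55.7, 10.4 and 15.0 CPM in mice 1 to 6. Small clones had 0.615, 0.680, 0, 0.331, 3.66 and 1.43 CPM, which came from 13 counts or fewer in each library. Large clones were higher in 6 of 6 mice, but the groups overlapped, since the large clones of mouse 3 lay below the small clones of mouse 5. The mean was 21.1 ± 18.6 CPM (SD, n = 6) against 1.12 ± 1.33 CPM (SD, n = 6), with a log2 fold change of 4.19 (SE 1.07). A higher level in large clones of all 6 mice was seen for 1.16% of all tested genes.

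The low counts left the size of the Mgme1 ratio poorly fixed in single mice. It was 2.84 in mouse 5 (1.48 to 5.80) and 168 in mouse 4 (29.7 to 6704), where the small clones had 1 count. Mouse 3 gave a lower bound of 4.43-fold.

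Cmpk2, a mitochondrial kinase that phosphorylates CMP and UMP and their deoxy forms, had 14.6, 8.70, 23.7, 6.91, 26.2 and 18.8 CPM in large clones. Its small-clone values were 4.00, 2.72, 0.724, 1.98, 6.47 and 1.43 CPM. The groups did not overlap on the TMM scale, though the large clones of mouse 4 and the small clones of mouse 5 were nearly level. The former had 16 counts in a total of 3382006, and the latter 23 in 4031079. By library totals alone their order is reversed and the groups overlap. The mean was 16.5 ± 7.84 CPM (SD, n = 6) in large and 2.89 ± 2.09 CPM (SD, n = 6) in small clones, a log2 fold change of 2.50 (SE 0.75). Ratios within mice lay between 3.20 in mouse 2 (1.47 to 7.94) and 32.7 in mouse 3 (10.7 to 163). Among the 5 libraries of high chemoreceptor share the log2 fold change was 3.66 for Nme4, 4.66 for Mgme1 and 3.63 for Cmpk2. Among the other 7 it was 4.38, 4.02 and 2.24. The chemoreceptor share and the level had Spearman correlations of 0.40 for Nme4, 0.21 for Mgme1 and 0.03 for Cmpk2 over the 12 libraries, a description with no test.

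**Figure D1:**
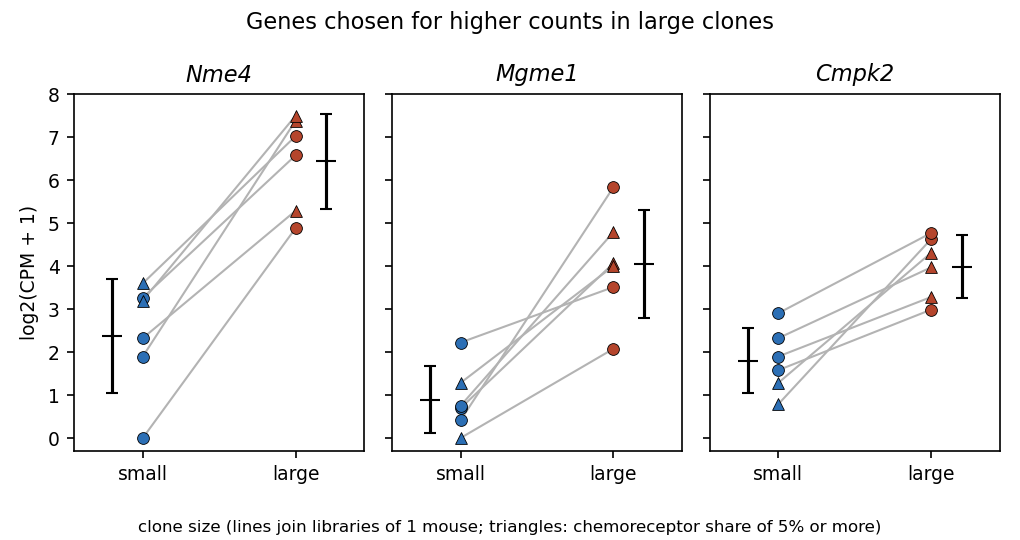
Level of Nme4, Mgme1 and Cmpk2 as log2(CPM + 1) in small and large clones, with a line joining the libraries of each mouse, bars for the mean ± SD of 6 libraries, and triangles for the 5 libraries with 5% or more of counts in chemoreceptor genes. The lines slope upward to large clones in all 6 mice for each gene, and the groups overlap for Mgme1.

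None of the 7 neighbours of the 3 chosen genes was higher in large clones of all 6 mice. Only 1.16% of all tested genes were, so little is read from that. Decr2, which lies 1397 bases from Nme4 by the table's own coordinates, ran from 9.22 to 53.6 CPM (median 41.1) in large and from 12.1 to 62.9 CPM (median 26.9) in small clones. Snx5, which overlaps Mgme1 on the opposite strand, ran from 9.94 to 38.3 CPM (median 29.7) and from 18.5 to 39.0 CPM (median 23.0). Whether counting used strand is not given in the sources used here, so reads in the shared stretch cannot be assigned with certainty. Rsad2, an interferon-induced gene 12752 bases from Cmpk2, ran from 1.60 to 42.1 CPM (median 23.3) and from 1.93 to 80.5 CPM (median 22.8). Decr2 was higher in large clones of 4 mice, and Snx5 and Rsad2 of 3 mice each. The remaining neighbours, Gm8186, Gm11687, Ovol2 and Gm46344, were higher in large clones of 3, 3, 1 and 4 mice. Ovol2 had 63 counts in all, none in 9 libraries, and was lower in large clones of 1 mouse. Gm11687 had no count in 5 libraries, and neither Ovol2 nor Gm11687 passed the filter on low counts.

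By rank correlation over the 12 libraries, the genes most like Nme4 were Lrp1b (Spearman 0.88), Dennd10 (0.85), Gm5637 (0.84), Ppm1a (0.83) and Gm16523 (0.83). Those most like Mgme1 were Ndufb6 (0.86), Xpnpep3 (0.85), Polr1f (0.85), Rai2 (0.84) and Grhl2 (0.82). For Cmpk2 they were Terf2ip (0.87), Ankrd49 (0.83), Fnbp4 (0.81), Me1 (0.81) and Ddo (0.78). Nme4 and Mgme1 had a correlation of 0.60, Nme4 and Cmpk2 of 0.62, and Mgme1 and Cmpk2 of 0.68. The choice of the 3 by clone size contributes to these last values, and all such points share libraries, depth and mouse.

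None of the 7 comparison genes passed the test between clone sizes, in which edgeR's quasi-likelihood test gave an adjusted p of 0.9998 for each of the 6 tested. The threshold was an adjusted p of 0.05 over all 10848 tested genes, which 0% of them passed. DESeq2 called 5 genes over the table and none of the 7. At an unadjusted p under 0.05, edgeR called 2.54% of tested genes, 1.44% (156) as higher and 1.1% (119) as lower in large clones, and Rrm2b was among the higher ones. Since both libraries of a number come from 1 mouse, a fit with mouse as a block was also made, and its value is given beside a log2 fold change that it moved by over 1.5-fold or turned. P-values reflect the spread between these libraries. In simulated counts the edgeR test called 7 of 50 genes changed 16-fold, so a gene that did not pass may still differ between clone sizes.

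Tk2 and Dguok are the mitochondrial kinases that start salvage of pyrimidine and purine deoxynucleosides. Tk2 had 2.89, 0, 23.7, 0, 35.2 and 0.758 CPM in large clones of mice 1 to 6 and 25.5, 73.1, 3.62, 79.4, 33.5 and 0.409 CPM in small clones. Its log2 fold change was -1.78 (SE 1.43, 95% interval -4.58 to 1.02), with large clones higher in 3 of 6 mice, and the groups overlapped widely. Dguok had 3.51, 0, 7.22, 0.432, 3.82 and 0.569 CPM in large and 13.2, 2.04, 0.241, 28.8, 31.5 and 1.43 CPM in small clones. Large clones were lower in 5 of 6 mice, as for 13.5% of all tested genes at 5 or more mice, and the log2 fold change was -2.31 (SE 1.23, 95% interval -4.71 to 0.10). The edgeR quasi-likelihood p before adjustment was 0.231 for Tk2 and 0.0803 for Dguok, and the adjusted p was 0.9998 for both. For Dguok, p before adjustment was lower in DESeq2 (0.0427), DESeq2 with mouse as a block (0.0220) and edgeR without mouse 3 (0.0277). In the other fits of Dguok it ran from 0.0687 (limma-voom) to 0.436 (edgeR with chemoreceptor share and block). For Tk2 it was 0.0330 by limma-voom, and otherwise from 0.0982 (DESeq2 with block) to 0.659 (edgeR, 5 libraries of high share). Neither gene passed after adjustment in any fit.

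Both kinases were low in the libraries of high chemoreceptor share. Tk2 ran from 0 to 3.62 CPM in those 5 libraries and from 0 to 79.4 CPM in the other 7. Dguok ran from 0 to 3.51 CPM and from 0.432 to 31.5 CPM. Their Spearman correlations with the chemoreceptor share were -0.56 and -0.62 over the 12 libraries, and with each other 0.74, as descriptions. Of the 5 libraries, 3 were of large clones. With the chemoreceptor share as a covariate, the log2 fold change was -0.93 for Tk2 and -1.21 for Dguok, and among the 7 libraries of lower share it was -1.43 and -2.32.

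Rrm2b, the p53-inducible subunit of ribonucleotide reductase that supplies deoxynucleotides in cells that do not divide, had 5.16, 97.8, 69.4, 2.16, 6.83 and 8.15 CPM in large clones. In small clones it had 4.31, 2.38, 3.86, 2.98, 11.5 and 7.36 CPM. The large clones of mice 2 and 3 stood far above the rest, and the other 4 lay within the range of small clones or just below it. Its log2 fold change was 2.54 (SE 1.00, edgeR p before adjustment 0.0236, adjusted p 0.9998), and the unadjusted call held in some fits but not in others. It held with DESeq2 (2.55, DESeq2 p before adjustment 0.00456) and with the chemoreceptor share as a covariate (2.57, edgeR p before adjustment 0.0239). The log2 fold change came to 1.16 (edgeR p before adjustment 0.349) when mouse was a block in the fit. It came to 1.47 (p 0.184) when mouse 2 was left out and to 2.05 (p 0.0904) when mouse 3 was. Counts of Rrm2b were not whole in 12 of 12 libraries, so reads were shared with other features, and the gene overlaps the processed pseudogene Gm3362. Its value is therefore uncertain.

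Polg, the catalytic subunit of the mitochondrial DNA polymerase, had 49.1, 6.18, 60.1, 74.3, 41.5 and 53.8 CPM in large and 39.4, 0.340, 2.41, 129.7, 59.1 and 35.6 CPM in small clones. The small clones of mice 2 and 3 were nearly without it, while those of mouse 4 held the most of any library. Its log2 fold change was 0.10 (SE 0.97, 95% interval -1.81 to 2.00), and 1.07 with mouse as a block (edgeR p before adjustment 0.294). Polg overlaps Fanci and Polg2 overlaps Milr1, and counts were not whole in 7 and 11 libraries, so their levels are uncertain, while counts of Mgme1 and Cmpk2 were whole in every library. Polg2, the accessory subunit, was the steadiest of the 10 genes, with a coefficient of variation of 34.7% over the 12 libraries. It had 29.3, 40.5, 48.9, 23.8, 18.0 and 39.2 CPM in large and 28.3, 18.0, 42.4, 25.1, 17.7 and 35.4 CPM in small clones. Large clones were higher in 5 of 6 mice, which held for 12.2% of all tested genes at 5 or more mice, and the log2 fold change was 0.26 (SE 0.56, 95% interval -0.85 to 1.36).

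Twnk, the replicative helicase of mitochondrial DNA, had 32.4, 61.4, 124.7, 7.78, 74.0 and 12.3 CPM in large clones. Small clones had 54.4, 27.9, 11.3, 155.8, 86.1 and 91.6 CPM, so the order within mice was mixed, with large clones higher in 2 of 6. Its log2 fold change was -0.45 (SE 0.76, 95% interval -1.95 to 1.05). Twnk counts were not whole in any library, and the gene overlaps Mrpl43. By edgeR's quasi-likelihood test, p before adjustment was 0.922 for Polg, 0.654 for Polg2 and 0.564 for Twnk, each with an adjusted p of 0.9998.

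Tfam, which packages mitochondrial DNA and starts its transcription, was scarcely sampled. It had 17.7 counts in all 12 libraries together, none in 4 of them, and at most 1.13 CPM in 1. The mean was 0.379 ± 0.348 CPM (SD, n = 6) in large and 0.398 ± 0.425 CPM (SD, n = 6) in small clones. A difference in Tfam was not detectable at this depth.

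**Figure D2:**
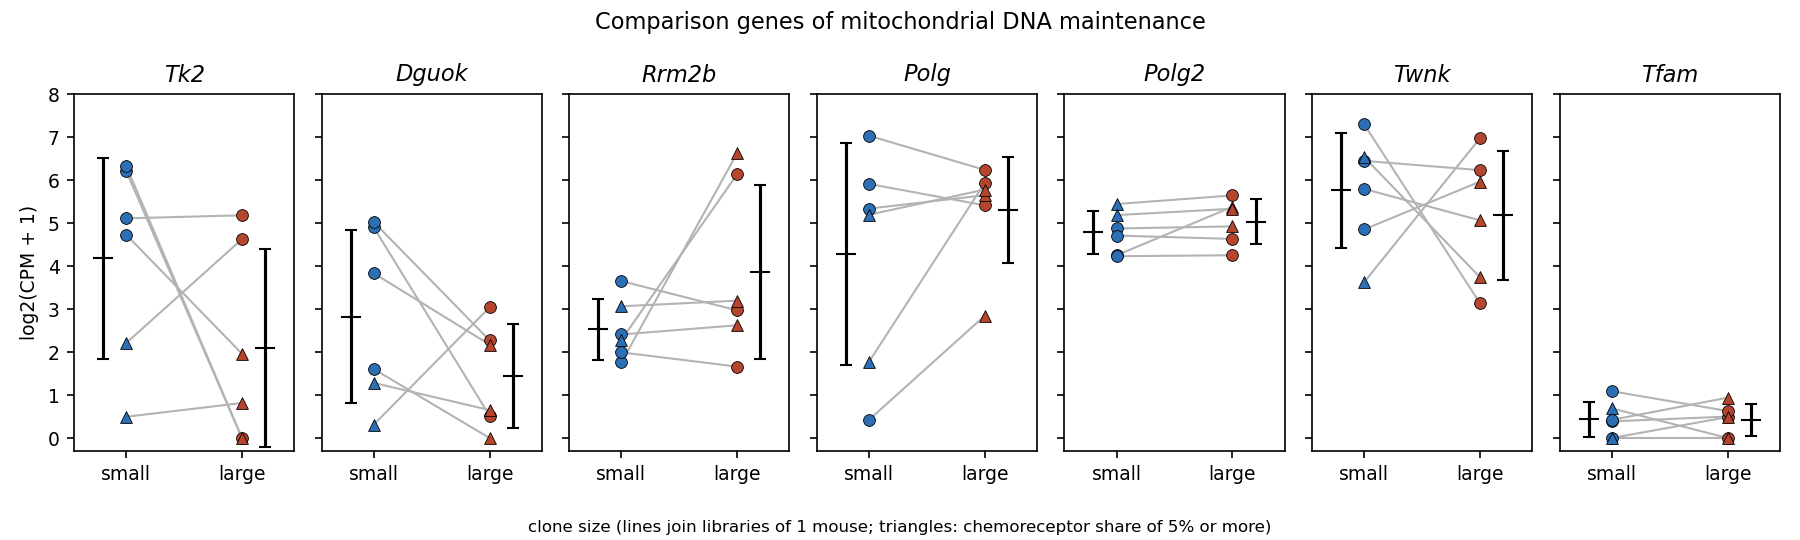
Level of the 7 comparison genes as log2(CPM + 1) in small and large clones, drawn as in the plot of the chosen genes with a line per mouse and mean ± SD of 6 libraries. Small and large clones overlap for every gene, and Polg2 runs from 17.7 to 48.9 CPM while Tfam lies near 0.

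Levels can be compared between genes only per length, here as CPM per kilobase of the longest annotated transcript. In large clones Nme4 stood first at 105 ± 63.2 CPM per kilobase (SD, n = 6), followed by Polg2 at 22.1, Twnk at 14.9 and Mgme1 at 7.43. Then came Rrm2b at 6.92, Polg at 6.06, Cmpk2 at 5.15, Tk2 at 4.33, Dguok at 2.34 and Tfam at 0.0910 CPM per kilobase. Of neighbours in this order, only Nme4 and Polg2 differed by more than the larger of their SDs. In small clones Twnk at 20.4 and Polg2 at 18.5 led, and Nme4 was in the middle of the order at 5.73 ± 4.17 CPM per kilobase (SD, n = 6). Cmpk2 at 0.903 and Mgme1 at 0.394 CPM per kilobase were above only Tfam there, and no neighbours differed by more than the larger SD. Nme4, Mgme1 and Cmpk2 were chosen for higher counts in large clones, so nothing is read from their change of place between clone sizes.

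**Figure D3:**
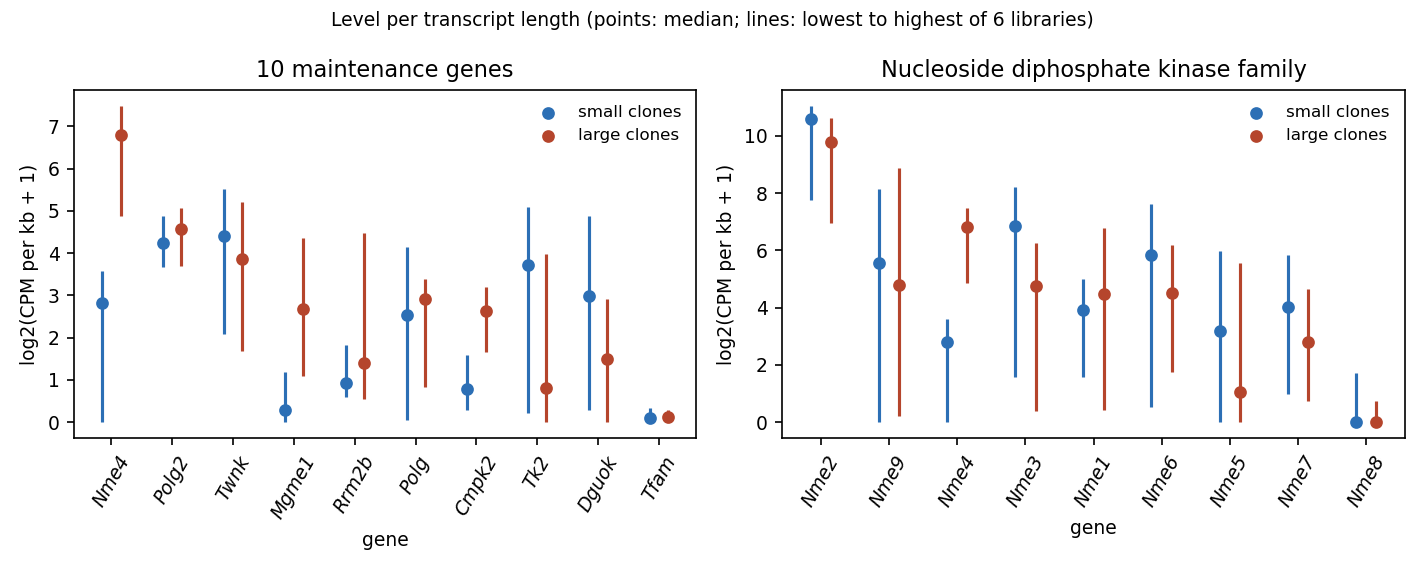
Median level with the lowest and highest library, as log2(CPM per kilobase + 1), of the 10 genes and of the other nucleoside diphosphate kinases in large and small clones. Nme4, which was chosen on this contrast, leads the 10 genes in large clones and lies in the middle of them in small clones.

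The nucleoside diphosphate kinase family includes the abundant cytosolic enzymes Nme1 and Nme2 and further members at the mitochondria and in cilia. Per length, Nme4 was the third of the 9 members in large clones, behind Nme2 at 833 and Nme9 at 125 CPM per kilobase, and the eighth in small clones. By medians Nme4 was the second in large clones, at 111 against 26.8 CPM per kilobase for Nme9, whose mean rests on libraries of up to 468 and differed from that of Nme4 by less than the larger SD. Nothing is read from the change of place of Nme4 between clone sizes, since it was chosen on that contrast. Of the 8 other members 6 were tested, of which 2 had log2 fold changes above 0 and 4 below. These were 1.09 (SE 0.96) for Nme1, -0.61 (SE 0.68) for Nme2, -1.81 (SE 1.04) for Nme3, -1.24 (SE 1.15) for Nme6, -1.31 (SE 1.03) for Nme7 and 0.52 (SE 1.53) for Nme9. None had an edgeR p before adjustment under 0.05, and the lowest was 0.101 for Nme3 with an adjusted p of 0.9998. The directions of Nme1, Nme2, Nme3, Nme6 and Nme9 turned under other settings, with values in the closing section, and with mouse as a block Nme1 was 0.04 and Nme9 -0.92. Nme5 and Nme8 did not pass the filter on low counts.

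The direct machinery, apart from the 3 chosen genes, falls into a list for replication and one for nucleotide supply. Of 23 genes for replication and transcription of mitochondrial DNA, 13 were tested, with 6 log2 fold changes above 0, 7 below and a median of -0.25. None of the 13 had an unadjusted p under 0.05. Highest in CPM, a scale that does not allow for length, were Mterf3, a regulator of mitochondrial transcription, at 591 to 1974 CPM (median 1398) in large and 349 to 1869 CPM (median 1005) in small clones, and Endog, a mitochondrial nuclease, at 29.8 to 1466 CPM (median 297) and 26.6 to 1366 CPM (median 165). The 5 libraries of high chemoreceptor share held 1664 to 1974 CPM of Mterf3 and the other 7 held 349 to 1132 CPM. Endog stood the other way, at 26.6 to 68.7 CPM in the 5 and 57.4 to 1466 CPM in the 7.

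Among 19 genes for mitochondrial nucleotide supply, 14 were tested, with 8 above 0, 6 below and a median of 0.13. Of the 14, Rrm2b alone had an unadjusted p under 0.05 in the main edgeR fit, with the values given for it.

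**Figure D4:**
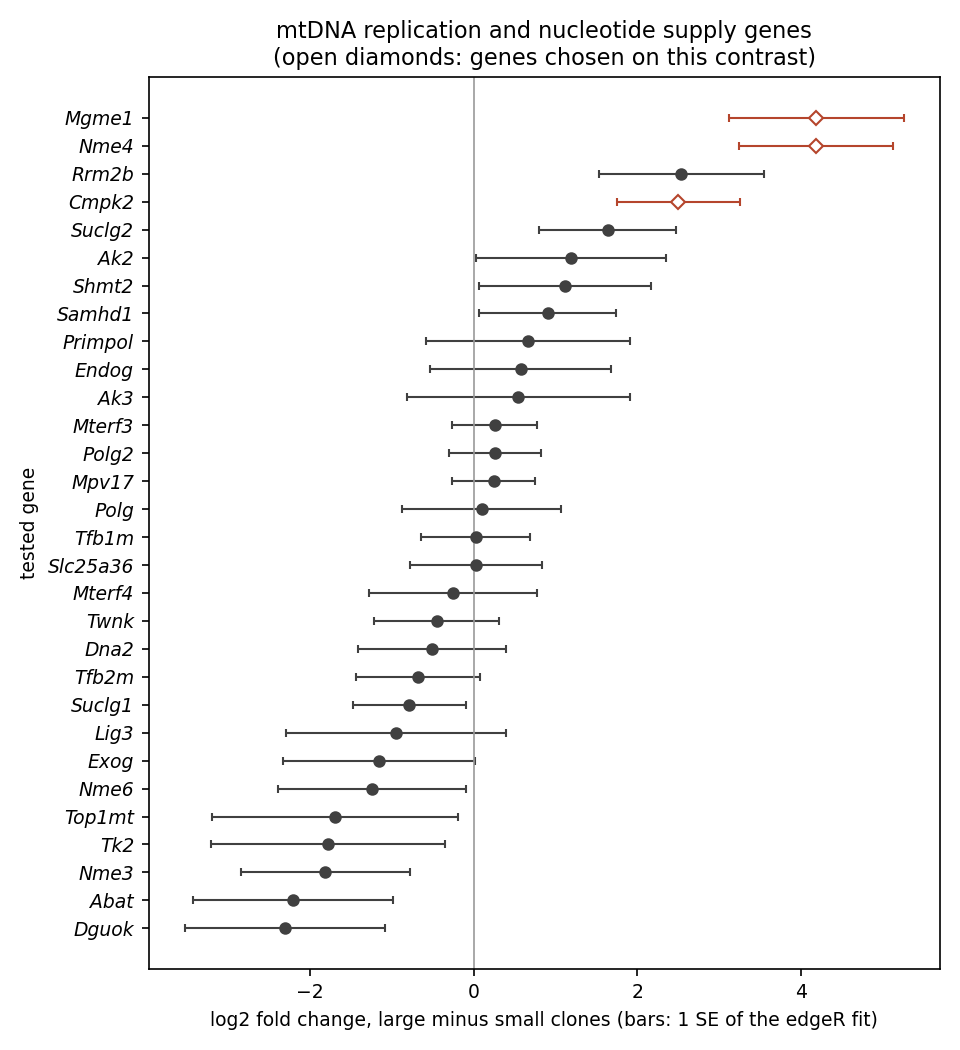
Log2 fold change of large against small clones with bars of 1 SE from the edgeR fit, for the tested genes of the replication and nucleotide supply lists, with open diamonds for the genes chosen on this contrast. The 27 genes not chosen on it spread to both sides of 0, with 14 above and 13 below.

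Over all 8 lists, 87 of 134 genes were tested, 42 with a log2 fold change above 0 and 45 below, with a median of -0.05 against 0.06 for all tested genes. None passed an adjusted p of 0.05 by edgeR or by DESeq2, and 2 higher and 1 lower had an unadjusted p under 0.05 by edgeR, or 3.45% of the 87 against 2.54% of all tested genes. With mouse as a block that count was 1 of 87, beside 202 of all 10848 tested genes. By DESeq2 it was 5 of 87, beside 535 of 10848. DESeq2 with the block gave 8 of 87, beside 1134 of 10848. Cytosolic deoxynucleotide synthesis had 10 tested genes with 6 above 0 and a median of 0.44, and its genes of highest CPM were Nme2 and Tyms. Tyms, thymidylate synthase, ran from 338 to 1649 CPM (median 905) in large and from 123 to 1502 CPM (median 534) in small clones. Nme2 ran from 125 to 1606 CPM (median 885) and from 220 to 2147 CPM (median 1563). For nucleoid structure, fusion and repair, 15 genes were tested with 6 above 0 and a median of -0.28, led in CPM by the protease Clpp and the scaffold protein prohibitin (Phb). Clpp ran from 50.2 to 807 CPM (median 271) in large and from 127 to 704 CPM (median 496) in small clones. Phb ran from 94.3 to 538 CPM (median 261) and from 123 to 853 CPM (median 387).

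Of 11 regulators of mitochondrial biogenesis, 6 were tested, 1 above 0 and 5 below, with a median of -0.30. Nrf1, nuclear respiratory factor 1, a transcription factor for nuclear genes of mitochondrial proteins, had 56.9, 31.8, 5.61, 12.1, 11.2 and 57.1 CPM in large clones. In small clones it had 160, 24.8, 58.9, 57.6, 124 and 138 CPM. Large clones were lower in 5 of 6 mice, and the log2 fold change was -1.68 (SE 0.71, edgeR p before adjustment 0.0315, adjusted p 0.9998). Its size moved with the library set, at -3.32 in the 7 libraries of lower chemoreceptor share (edgeR p before adjustment 0.00528) and -1.05 in the 5 of high share (p 0.138). The log2 fold change was -2.44 with the share as a covariate (edgeR p before adjustment 0.00226) and -1.93 with mouse as a block (p 0.0231). Without mouse 5 it was -1.46 (edgeR p before adjustment 0.0900).

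Of 29 interferon-induced genes and sensors of mitochondrial DNA, 16 were tested, 7 above 0 and 9 below, with a median of -0.28. Oasl2, an interferon-induced gene of the oligoadenylate synthetase family, had 651 CPM in the large clones of mouse 4, against 15.6 to 26.5 CPM in the other large and 5.79 to 32.9 CPM in the small clones. Its log2 fold change was 2.83 (SE 1.04, edgeR p before adjustment 0.0160, adjusted p 0.9998), and it was 1.11 with the block and 0.25 without mouse 4. Cmpk2 had 6.91 CPM in the large clones of mouse 4 (16 counts), its lowest large-clone level, and 1.98 CPM in the small clones of that mouse. Whether interferon plays a part in the level of either gene was not tested.

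The 13 mRNAs that mitochondrial DNA itself encodes summed to 156 to 5067 CPM (median 487) in large and 76.5 to 2433 CPM (median 1102) in small clones. Of these, 11 were tested, with 7 log2 fold changes above 0, 4 below and a median of 0.63, and none had an unadjusted p under 0.05. Highest in CPM, with no allowance for length, were the cytochrome oxidase subunits mt-Co3, at 0.190 to 813 CPM (median 149) in large and 0 to 1259 CPM (median 325) in small clones, and mt-Co2, at 0 to 918 CPM (median 31.7) and 0 to 414 CPM (median 86.4). The sum was 76.5 to 611 CPM in the 5 libraries of high chemoreceptor share and 164 to 5067 CPM in the other 7. Mitochondrial mRNAs took at most 0.347% of counts in any library, and RNA counts do not measure how much mitochondrial DNA the cells held.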

How the data were processed

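Expected counts per gene were used as the authors deposited them, in 1 table of 12 libraries. RSEM, Bowtie2 and GRCm38 are named, without tool versions, per the submitters' processing notes. The table's gene coordinates matched GENCODE M21 on GRCm38 for 3.00% of 35491 shared identifiers, so they are of another build and were not mixed with the RefSeq windows. Expected counts were rounded, 22.7% of entries not being whole. Genes passing filterByExpr (10848, with 97.2% of counts) were tested between clone sizes with edgeR 4.0.16 (TMM, quasi-likelihood, Benjamini-Hochberg adjustment, threshold 0.05) in R 4.3.3, after the script was tested on simulated data. The biological coefficient of variation was 115%. In the simulated data, 50 genes were changed at each fold. The test called 0 of them at 4-fold, 3 at 8-fold, 7 at 16-fold and 26 at 32-fold, so it misses most changes below 32-fold. A row without a symbol held 0.133% of counts and was left out. CPM were TMM-scaled, and plots used log2(CPM + 1).

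By the labels, a mouse gave 1 library of each clone size, which pairs the libraries by animal. Their deviations from the group means correlated at -0.02, -0.01, -0.38, 0.28, 0.52 and 0.64 in mice 1 to 6. The block by mouse, DESeq2 1.42.0, limma-voom 3.58.1, other filters and scalings, chemoreceptor share as a covariate or split, and leaving out each mouse were the alternatives.

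The genes and lists were chosen with earlier results of these data known. Named were the 10 genes, the nucleoside diphosphate kinases, list genes with an unadjusted p under 0.05 (otherwise the 2 of highest mean CPM in a list), the nearest neighbours with at least 10 counts, and the 5 most alike genes by rank correlation. 1 gene of the nucleotide supply list is not reported here and was left out of the list's counts.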

Additional observations from a re-analysis of the deposited data

Results flagged for a closer look

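Among 40 groups of 6 libraries examined, 6 held a library that stood apart from the other 5 by a gap test on CPM. Chance alone flags about 1 in 20 groups only where values are normally distributed. CPM here were uneven and often 0, so that rate does not hold and no excess is read from the 6. None of the 6 concerned the 10 genes. Oasl2 stood at 651 CPM in the large clones of mouse 4, against 15.6 to 26.5 CPM in the other large-clone libraries. In the large clones of mouse 3, Nme1 was at 349 CPM (others 1.14 to 90.3) and Nme7 at 42.1 CPM (others 1.14 to 15.3). Nme5 was at 52.6 CPM in the small clones of mouse 4 (others 0 to 19.1). Nme8 was at 1.44 CPM in the large clones of mouse 1, with no count in the others, and at 4.91 CPM in the small clones of mouse 6 (others 0 to 0.331).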

How the results depend on the processing

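Over the alternatives that could be fitted, the log2 fold change was 3.66 to 4.52 for Nme4, 3.41 to 4.66 for Mgme1 and 2.17 to 3.63 for Cmpk2, the highest for Cmpk2 in the 5 libraries of high chemoreceptor share. With mouse as a block (the pairing), they were 4.52, 4.51 and 2.59. Nme4, Mgme1 and Cmpk2 were chosen for higher counts in large clones of all 6 mice. A steady sign, here or with a mouse left out, follows from that choice, and nothing is read from it. No maintenance gene passed the adjusted threshold under any of 20 alternatives. Over all genes, the count past it was 0 with edgeR, without and with the block (275 and 202 at an unadjusted p under 0.05), but 5 with DESeq2 and 43 with DESeq2 and the block (14 higher, 29 lower). Leaving out 1 mouse at a time gave 3.81 to 4.41 for Nme4, 3.41 to 4.39 for Mgme1, 2.17 to 2.68 for Cmpk2, -2.80 to -1.13 for Tk2, -3.18 to -1.71 for Dguok, 1.47 to 3.09 for Rrm2b, -0.24 to 0.60 for Polg, 0.03 to 0.30 for Polg2, -1.15 to 0.16 for Twnk, -0.12 to 1.51 for Nme1, -0.87 to 1.51 for Nme9 and -0.24 to 0.16 for the median of the replication and supply lists (-0.43 with limma-voom). Over all alternatives fitted, the range was -3.63 (limma-voom) to -0.86 for Tk2, -3.18 to -1.04 for Dguok, 1.16 to 3.09 for Rrm2b, -0.24 to 1.52 for Polg (1.07 with the block), -0.17 to 0.34 for Polg2 and -1.15 to 0.16 for Twnk. Polg turned negative without mouse 3 (-0.24), as did Nme1 (-0.12) and Nme9 (-0.87), and Twnk turned positive without mouse 4 (0.16). In the 5 libraries alone, Polg2 was -0.17, Nme2 0.41, Nme3 0.33, Nme6 2.73 and Nme9 -0.83. Nme6 was 0.65 with the share as a covariate and the block, Nme9 was -0.92 with the block in edgeR and -0.92 in DESeq2, and limma-voom gave -0.39 for Nme1 and -3.18 for Nme9. The cause of these turns was not tested. Mgme1 could not be fitted without mouse 5, nor Dguok without mouse 1, without mouse 5 or in the 5 libraries, as they failed the filter there. Depth limits Tfam, and counts of 13 or fewer limit the small-clone level of Mgme1.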

Other observations

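Several list genes rose or fell with the chemoreceptor share of a library. Tyms had a Spearman correlation of 0.99 with that share over the 12 libraries, with 1134 to 1649 CPM in the 5 libraries of high share and 123 to 624 CPM in the other 7. Mterf3 had a correlation of 0.91 and Mpv17, an inner membrane protein needed to keep mitochondrial DNA, of 0.90. Mpv17 ran from 116 to 147 CPM in the 5 and from 41.3 to 92.6 CPM in the 7. The epithelial keratin Krt18 had a correlation of -0.92, with 204 to 1181 CPM in the 5 and 3066 to 6710 CPM in the 7. Tyms, Mterf3, Mpv17 and Krt18 were chosen for mention after their values were seen, and the correlations are descriptions over libraries that share mice. The share of all tested genes with correlations as strong was not counted, so nothing particular to these genes is read from them.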
